A study of Mus musculus with 6 samples.

Results

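This is an account of 9 genes of nephron progenitors and kidney development, Eya1, Six2, Six4, Wt1, Sall1, Osr1, Pax2, Cited1 and Amer1, in mouse embryonic stem cells that differ in DGCR8. They were taken by symbol, and all 9 had 1 row in the 21978 rows of the count table. DGCR8 is the RNA-binding partner of the nuclease Drosha, and together these proteins cut primary transcripts to start the making of most miRNAs. The title of the series ties the E518K substitution of DGCR8 to Wilms tumours, the kidney tumours of childhood, so the question here is how genes of the nephron progenitor program stood in cells with the mutant protein, without DGCR8 and with the wild-type protein.

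The E518K cells, clones 8 and 15, were labelled E518K/E518K and carried a Sleeping Beauty transposon vector for Flag-tagged mutant DGCR8, introduced with a transposase plasmid. The KO cells, libraries 1 and 3, were labelled DGCR8 -/- and not transfected, so they lack the vector and the transfection as well as DGCR8. The wt cells, clones 12 and 16, were labelled wt/wt and carried the same kind of vector for wild-type DGCR8. The labels and design text do not say whether the transfected clones were made from KO cells. All 3 groups of 2 libraries share the strain label NBA1-19349, 300 ng/mL doxycycline for 48 h, and growth without feeders in serum medium with LIF, 3 µM CHIR99021 and 1 µM PD0325901. CHIR99021 inhibits GSK3 and so switches on β-catenin signalling, and PD0325901 inhibits MEK, so every group was measured with both pathways set by inhibitors. Independent clones are stated for every condition, yet both KO titles carry clone number 261, so KO may stand for 1 clone, and p-values measure only the spread between these libraries, which may be technical.

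Nephrons arise from cap mesenchyme, a layer of progenitor cells around the tips of the ureteric bud. SIX2 holds these cells in self-renewal while WNT9B and WNT4 drive others to become epithelium. EYA1, SALL1, OSR1, PAX2, WT1 and CITED1 act in the same cells or in the intermediate mesoderm before them. In people, Wilms tumours often resemble an arrested cap mesenchyme, and WT1, AMER1, SIX2, DROSHA and DGCR8 are among the genes found mutated in them. None of these kidney cells was sampled here, so the values describe the genes in pluripotent cells.

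Polyadenylated RNA was sequenced as 100 bp pairs. Totals ran from 73642784 to 75121971 counts per library. CPM is the count scaled to library size with TMM factors, and tests are edgeR quasi-likelihood tests on all 16498 genes that passed a filter on low counts, with Benjamini-Hochberg adjusted p and a threshold of 0.05. Errors of log2 fold changes are standard errors, and n is 2 libraries per group throughout. Dgcr8 itself had 821 and 420 CPM in E518K libraries, 40.0 and 37.1 CPM in KO libraries, and 195 and 992 CPM in wt libraries, so every KO library lay under the others and the vector clones differed widely among themselves. The embryonic stem cell label held: 12 of 12 markers passed the filter, Dppa5a, Pou5f1 and Esrrb led them, and their summed level was 7155 to 7225 CPM in E518K, 5726 to 5814 in KO and 6873 to 7995 in wt. In KO against wt 10 of the 12 markers passed as lower and 1 as higher, beside 29.7% and 27.4% of all tested genes, and the part of this shift in the results below was not tested. Of 12 markers of mesoderm and intermediate mesoderm, 5 passed, and their sum was 4.6 to 5.86 CPM in E518K, 4.31 to 4.8 in KO and 3.92 to 4.46 in wt. Lhx1, Pax8 and Hoxb7, which mark the intermediate mesoderm and its ducts, were removed as too low, with at most 6, 20 and 11 counts in any library. In such bulk samples, fewer cells of a type and less RNA per cell cannot be told apart.

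Because DGCR8 acts through miRNAs, the 3′ UTRs of the 9 genes were searched for the 7 bases that pair with the seeds of 3 miRNA families: those that dominate mouse embryonic stem cells (the miR-290 cluster and its relative miR-302b), the miR-17 family, and let-7, which is kept low in such cells. Mature sequences are from RefSeq on GRCm38.p6, with the seed (bases 2 to 8) in capitals. The first 4 share 1 seed, the next 2 another, and let-7a has the last.
miR-291a-3p: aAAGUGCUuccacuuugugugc
miR-294-3p: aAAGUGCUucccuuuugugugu
miR-295-3p: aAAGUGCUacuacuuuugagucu
miR-302b-3p: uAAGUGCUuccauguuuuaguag
miR-17-5p: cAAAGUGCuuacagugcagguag
miR-20a-5p: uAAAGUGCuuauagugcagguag
let-7a-5p: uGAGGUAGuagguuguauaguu

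The matching 7mers on the transcript strand are AGCACTT for the miR-290 seed, GCACTTT for the miR-17 seed and CTACCTC for let-7. The first 2 share GCACTT, so 1 stretch can hold both. In 1 annotated transcript per gene (GENCODE M21), 4 of the 9 UTRs held a match, shown with 8 flanking bases on each side and the match in capitals.
Eya1, miR-290 match: gggtcagcAGCACTTctcatccc
Sall1, miR-17 match: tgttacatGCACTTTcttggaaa
Osr1, miR-17 match: tgcgactgGCACTTTatgctgac
Amer1, miR-17 match: ccaggatgGCACTTTtaggaatg

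These windows lie on GRCm38 at chr1:14169584-14169606 (minus strand), chr8:89027349-89027371 (minus), chr12:9581405-9581427 (plus) and chrX:95420805-95420827 (minus). The Eya1 match begins at base 1318 of a UTR of 1962 bases, the Sall1 match at base 1015 of 1143, the Osr1 match at base 788 of 875 and the Amer1 match at base 4293 of 4794. The Osr1 match is the one followed by an A, which with the 7mer makes the longest canonical form. No match to these 7mers was found in the UTRs of Six2, Six4, Wt1, Pax2 or Cited1, of which that of Cited1 has 76 bases, and no member UTR held CTACCTC. Over 14791 genes with a UTR, AGCACTT stood in 15.4%, GCACTTT in 13% and CTACCTC in 9.22%. A match is a description of the letters, not evidence of a working site.

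Sall1 was by far the most abundant of the 9, and the other levels ranked clearly below it. On the deposited TPM scale, which divides by the genomic span of a gene, Sall1 ranged over the 6 libraries from 53.9 to 108 TPM, Six4 from 20.2 to 34.8, Cited1 from 4.02 to 9.99, Amer1 from 2.08 to 3.64 and Eya1 from 0.370 to 0.803. None of these 5 ranges overlaps another of the 5. Six2 spanned 0 to 0.795 TPM, Wt1 0.0112 to 0.139, Osr1 0 to 0.0309 and Pax2 0 to 0.0127, and in the order Eya1, Six2, Wt1, Osr1, Pax2 each range overlaps the next. By mean TPM, Sall1 ranked 1108 and Six4 2805 among all genes, while Osr1 and Pax2 ranked 18367 and 19994. Since TPM here counts introns in the length, it lowers genes with long introns: exons make up 5.53% of the Eya1 span, 31.1% of the Sall1 span and 78.4% of the Six4 span. Per kilobase of exon, Sall1 spanned 27.2 to 50.9 CPM and Six4 4.05 to 6.50, followed by Cited1 with 1.60 to 4.29, Eya1 with 1.07 to 2.12 and Amer1 with 0.930 to 1.53. In the order Six4, Cited1, Eya1, Amer1 each range overlaps the next. The counts can include intronic reads, so this scale can in turn raise genes with long introns.

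**Figure D1:**
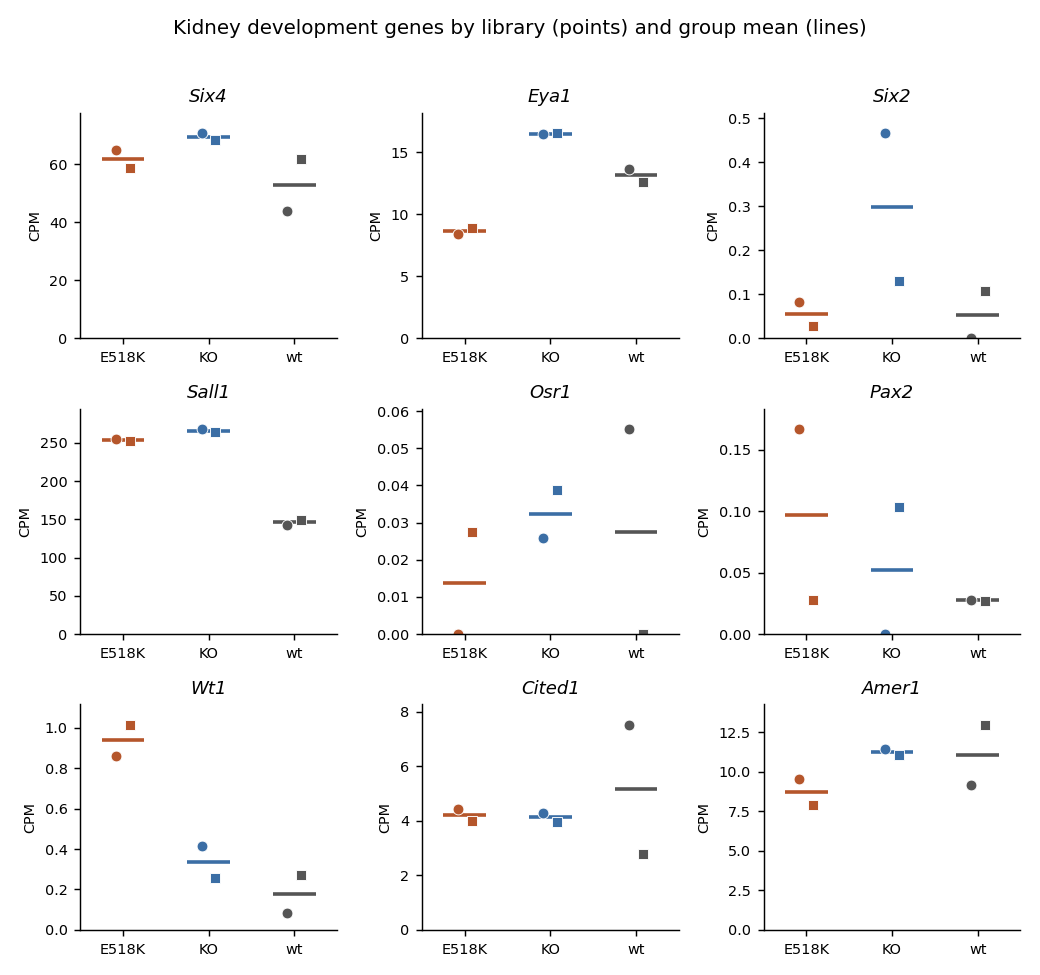
CPM of the 9 genes (linear axes from 0, a scale per gene) in the E518K, KO and wt groups, with a circle for E518K clone 8, KO library 1 and wt clone 12, a square for E518K clone 15, KO library 3 and wt clone 16, and a line at the group mean. In Sall1 and Eya1 the groups' points lie close together within each group, Cited1 and Six4 are spread in wt, and Six2, Wt1, Osr1 and Pax2 stay at or below 1.01 CPM.

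Of the 9 genes, 7 passed the filter on low counts. Osr1 and Pax2 did not and are too low to compare, and Six2 passed only through the KO libraries, where it was highest. In E518K against wt, Sall1 and Wt1 passed the test as higher and Eya1 as lower, 3 of 7, where 23.7% of all 16498 tested genes passed. In E518K against KO, Eya1 passed as lower and no member as higher, 1 of 7, where 41.8% of all tested genes passed. In the same edgeR fit Wt1 alone was higher at an unadjusted p under 0.05, limma on log2(TPM + 1) called it, and DESeq2 called 0. In KO against wt, Sall1 and Eya1 passed as higher and no member as lower, 2 of 7, where 57.2% of all tested genes passed. No member was lower there at an unadjusted p under 0.05 in edgeR, and DESeq2 and limma called 0 as lower. The median log2 fold change over the 7 was 0.02, -0.17 and 0.39 in the same order of comparisons, and -0.02 over all genes in each. The libraries stood apart, with every library of one group above every library of the other, for 3, 6 and 4 of the 7, as they did for 62%, 80.5% and 81.7% of all tested genes. The comparisons share libraries, so they are not independent of each other. The wt clones spread most, with a common biological coefficient of variation of 9.19% in E518K, 2.6% in KO and 20.6% in wt, and the error is pooled over the groups. When E518K was set against KO with only those 4 libraries, without wt clone 12 or without wt clone 16, Six4 and Amer1 also passed as lower and Wt1 as higher, with adjusted p of 0.0409 to 0.0458 for Six4, 0.0228 to 0.0246 for Amer1 and 0.00517 to 0.00602 for Wt1.

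**Figure D2:**
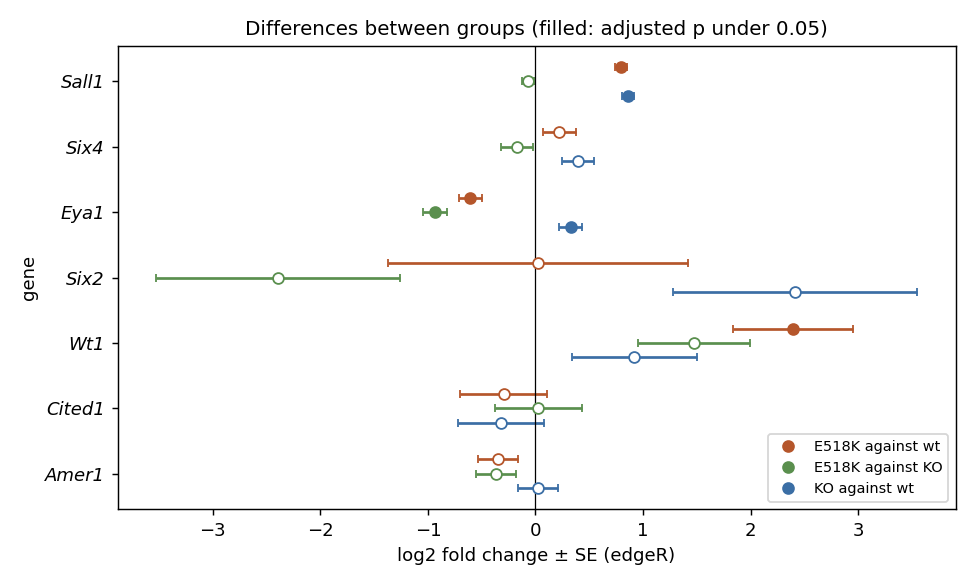
Log2 fold changes of the 7 genes that passed the filter, with standard errors, for E518K against wt, E518K against KO and KO against wt, filled where the adjusted p is under 0.05. Sall1 lies at 0.80 and 0.86 against wt in E518K and KO, Eya1 lies below 0 in E518K and above 0 in KO, and the bars of Six2 are the longest.

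Sall1 was higher in both E518K and KO than in wt. SALL1 is a zinc-finger repressor needed for the ureteric bud to invade the mesenchyme, and it is also present in embryonic stem cells. It had 255 and 252 CPM in E518K libraries, 268 and 264 CPM in KO libraries, and 143 and 149 CPM in wt libraries. All 4 E518K and KO libraries lay above both wt libraries. The mean was 254 ± 1.78 CPM in E518K and 146 ± 4.5 CPM in wt (SD), a log2 fold change of 0.80 ± 0.06 (1.74-fold, adjusted p = 0.000773). In KO the mean was 266 ± 2.99 CPM, a log2 fold change of 0.86 ± 0.06 against wt (1.82-fold, adjusted p = 5.77e-05). E518K and KO libraries did not overlap either, but the difference of -0.07 ± 0.06 did not pass (adjusted p = 0.369). All 3 results held their side of the threshold in each of the 15 alternative analyses run. Its UTR holds the miR-17 match printed above, as do those of Osr1 and Amer1, and any part of that match in these values was not tested. The gene lies at chr8:89027235-89044162 on the minus strand, overlaps no other gene of the table, and its counts cannot separate exons from introns.

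Eya1 was lower in E518K than in either other group. EYA1 binds SIX2 and related homeobox proteins as a coactivator and also acts as a tyrosine phosphatase, and mice without it form no kidneys. It had 8.38 and 8.92 CPM in E518K libraries, 16.5 and 16.5 CPM in KO libraries, and 13.7 and 12.6 CPM in wt libraries. Each group stood clear of the others, with E518K lowest and KO highest. E518K averaged 8.65 ± 0.375 CPM against 16.5 ± 0.0269 CPM in KO (SD), a log2 fold change of -0.93 ± 0.11 (0.524-fold, adjusted p = 0.000844), and this call held in all 15 alternatives. Against the wt mean of 13.2 ± 0.744 CPM, E518K was lower by a log2 fold change of -0.61 ± 0.11 (0.658-fold, adjusted p = 0.0102). Leaving out E518K clone 8 or clone 15 ended that call (adjusted p = 0.0611 and 0.0669). The KO value was above wt by 0.33 ± 0.11 (1.25-fold, adjusted p = 0.0351), a call lost in 9 of the 15 alternatives, with adjusted p = 0.184 when the KO libraries were summed as 1 sample and up to 0.193 without KO library 3.

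Eya1 spans chr1:14168954-14310235 on the minus strand. It overlaps the small Gm22616 and Gm37444 of the annotation, neither of which is in the table, and with 5.53% of the span exonic, unspliced transcripts can make up part of its count. EYA1 also works in muscle precursors and cranial placodes. Of 9 markers of these, 3 passed the filter, Myf5 and Myf6 were at 0 counts in every library, and the sum was 0.439 to 0.847 CPM in E518K, 0.776 to 1.21 in KO and 0.717 to 1.06 in wt. Pax7, a muscle precursor factor, had 2 and 6 counts in E518K libraries, 8 and 10 counts in KO libraries, and 16 and 32 counts in wt libraries, and like Eya1 passed as lower in E518K against wt (-2.53 ± 0.70, adjusted p = 0.0399). It was let through the filter by its wt counts, so this call is a description only. Neurog1 went the other way, with 24 and 10 counts in E518K libraries and 4 and 8 counts in wt libraries (adjusted p = 0.163). Pax3 overlapped, with 22 and 8 counts in E518K libraries and 16 and 14 counts in wt libraries (adjusted p = 0.987). Of the 3 tested, 0 passed as higher and 1 as lower in E518K against wt, beside 11.3% and 12.5% of all tested genes. None passed in E518K against KO or in KO against wt. The part of such cells in the Eya1 result was not tested. Eya1 is the one member whose UTR holds the miR-290 match, and any part of that match in the Eya1 values was not tested.

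Six4, at chr12:73099609-73113456 on the minus strand, and Six2, at chr17:85684277-85688274 on the minus strand, are homeobox genes of the sine oculis family. Six4 had 64.8 and 58.7 CPM in E518K libraries, 70.5 and 68.3 CPM in KO libraries, and 43.9 and 61.9 CPM in wt libraries. The KO libraries were the highest, and wt clone 16 fell between the E518K clones. E518K against wt gave 0.22 ± 0.15 (adjusted p = 0.311), E518K against KO gave -0.17 ± 0.15 (adjusted p = 0.395) and KO against wt gave 0.39 ± 0.15 (adjusted p = 0.0572), none past the threshold. One wt library decides this: without wt clone 16, the log2 fold changes against wt were 0.49 for E518K (adjusted p = 0.00122) and 0.65 for KO (adjusted p = 8.2e-05), and without wt clone 12 they were 4.3e-05 for E518K (adjusted p = 1) and 0.16 for KO (adjusted p = 0.0859). DESeq2 also called KO against wt (adjusted p = 0.0225).

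Six2, the gene most used to mark nephron progenitors, was near the limit of detection. It had 6 and 2 counts in E518K libraries, 36 and 10 counts in KO libraries, and 0 and 8 counts in wt libraries. KO library 1 held more than all the others together. Both KO libraries lay above the rest, but KO against wt gave 2.41 ± 1.14 (adjusted p = 0.106) and E518K against KO gave -2.39 ± 1.14 (adjusted p = 0.131). Since Six2 entered the tests through its KO counts, these comparisons with KO support nothing. E518K against wt was 0.02 ± 1.40 (adjusted p = 0.993). At such counts a difference in Six2 was not detectable between E518K and wt, which is not a statement that there was none.

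Wt1 encodes a zinc-finger factor of nephron progenitors, podocytes, gonads and mesothelium, and its loss is a classic cause of Wilms tumour in people. It had 62 and 74 counts in E518K libraries, 32 and 20 counts in KO libraries, and 6 and 20 counts in wt libraries, which is 0.861 and 1.01 CPM in E518K, 0.414 and 0.259 CPM in KO, and 0.0828 and 0.270 CPM in wt. Both E518K libraries exceeded the other 4, while KO and wt overlapped. E518K against wt gave 2.39 ± 0.56 (5.26-fold, adjusted p = 0.0236), from a mean of 0.938 ± 0.109 CPM in E518K and 0.177 ± 0.133 CPM in wt (SD). Leaving out E518K clone 8 or clone 15 ended this call too (adjusted p = 0.093 and 0.143). The fold rested on the lower wt library: the log2 value was 1.79 without wt clone 12 and 3.48 without wt clone 16. E518K against KO gave 1.47 ± 0.52 (adjusted p = 0.0574), which passed in 6 of the 15 alternatives, and KO against wt gave 0.92 ± 0.58 (adjusted p = 0.211; 0.0205 without wt clone 16 and 0.607 without wt clone 12).

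The level of Wt1 stayed low in every library, at most 0.139 TPM, with exons making up 13.2% of its span at chr2:105126529-105173616. A list of 9 mesothelium and gonad markers, of which 7 passed the filter, summed to 10.5 and 10.96 CPM in E518K, 73.1 and 69.1 CPM in KO, and 8.15 and 5.18 CPM in wt. Msln, a mesothelial surface protein, had the highest mean CPM of the list, with 6.40 and 7.79 CPM in E518K, 66.2 and 62.6 CPM in KO, and 4.43 and 2.12 CPM in wt. Like Wt1, Msln passed as higher in E518K against wt (1.12 ± 0.29, adjusted p = 0.0325). It was lower in E518K than in KO (-3.18 ± 0.28, adjusted p = 0.000363) and higher in KO than in wt (4.30 ± 0.30, adjusted p = 6.94e-05). Upk3b, another mesothelial gene, was instead lowest in KO, with 0.514 and 0.631 CPM in E518K, 0.0905 and 0.169 CPM in KO, and 0.428 and 0.419 CPM in wt. It was higher in E518K than in KO (2.13 ± 0.47, adjusted p = 0.00973) and lower in KO than in wt (-1.70 ± 0.47, adjusted p = 0.0182), and E518K against wt did not pass (0.43 ± 0.42, adjusted p = 0.483). Of the 7 tested, 1 passed as higher and 0 as lower in E518K against wt, 1 and 3 in E518K against KO, and 3 and 1 in KO against wt, beside 11.3% and 12.5%, 22% and 19.8%, and 27.4% and 29.7% of all tested genes. Tcf21 and Nr5a1 of the list were removed as too low, and the part of such cells in the Wt1 result was not tested.

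Osr1, the earliest known marker of intermediate mesoderm, had 0 and 2 counts in E518K libraries, 2 and 3 counts in KO libraries, and 4 and 0 counts in wt libraries. Pax2, a paired-box factor of intermediate mesoderm, ureteric bud and progenitors, had 12 and 2 counts in E518K libraries, 0 and 8 counts in KO libraries, and 2 and 2 counts in wt libraries. For both genes the groups overlap, and no fold is given. A count of 0 allows up to 3 counts, which covers counting error only. Osr1 lies at chr12:9570116-9581500 and Pax2 at chr19:44756045-44837871, both on the plus strand. Annotated genes not in the table overlap them (1700022H16Rik over Osr1; Gm20395, Mir6405 and 1700039E22Rik over Pax2), so that even these few reads need not be theirs.

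Cited1 and Amer1 act beside the transcription factors, and both lie on the minus strand of the X chromosome, at chrX:102247381-102252181 and chrX:95420318-95444872. CITED1 is a coregulator that binds CBP/p300 and marks undifferentiated cap mesenchyme in the mouse. It had 4.43 and 3.98 CPM in E518K libraries, 4.28 and 3.97 CPM in KO libraries, and 7.52 and 2.80 CPM in wt libraries. The wt clones lay on either side of the other 4 libraries, which agreed closely. E518K against wt gave -0.29 ± 0.40 (adjusted p = 0.624), E518K against KO gave 0.03 ± 0.40 (adjusted p = 0.962) and KO against wt gave -0.32 ± 0.40 (adjusted p = 0.514). The sign depends on which wt clone is kept. Without wt clone 12 the values against wt were 0.59 for E518K (adjusted p = 0.0353) and 0.56 for KO (adjusted p = 0.0246), and without wt clone 16 they were -0.84 (adjusted p = 0.00291) and -0.87 (adjusted p = 0.001).

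AMER1, also named WTX, holds APC and the β-catenin destruction complex at the membrane, and in people it is the X-linked gene inactivated in a share of Wilms tumours. It had 9.55 and 7.90 CPM in E518K libraries, 11.4 and 11.1 CPM in KO libraries, and 9.19 and 13.0 CPM in wt libraries. E518K lay below KO, and the wt clones spanned both groups. E518K against wt gave -0.35 ± 0.19 (adjusted p = 0.217), E518K against KO gave -0.37 ± 0.19 (adjusted p = 0.153) and KO against wt gave 0.02 ± 0.19 (adjusted p = 0.923). Without wt clone 12 E518K against wt passed (-0.57, adjusted p = 0.0137), and without wt clone 16 it was -0.07 (adjusted p = 0.705).

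The counts of Eya1, Six2, Wt1, Pax2 and Amer1 were even numbers in all 6 libraries, as they were for 8.52% of all tested genes. No source used here says whether reads or read pairs were counted. If both reads of a pair were counted, the number of fragments behind a low count is smaller than the count.

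Of the 17 paralogs of these genes, 12 passed the filter. In E518K against wt 2 of the 12 passed as higher and 3 as lower, in E518K against KO 3 and 2, and in KO against wt 5 and 5. The 5 higher in KO against wt include Six3, which passed the filter only through its KO counts. Of all tested genes 11.3% and 12.5%, 22% and 19.8%, and 27.4% and 29.7% passed as higher and lower in these comparisons. The median log2 fold change of the paralogs was -0.18, -0.09 and -0.48. Eya4, Six6, Pax8, Amer2 and Amer3 were too low to compare.

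Six3 lies 54975 bases from Six2 on chromosome 17. It had 8 and 0 counts in E518K libraries, 11 and 16 counts in KO libraries, and 0 and 0 counts in wt libraries. It passed the filter through the KO libraries, so its call in KO against wt is no support for a difference, and no fold is given at such counts.

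Six5 had 4.15 and 4.12 CPM in E518K libraries, 1.73 and 1.66 CPM in KO libraries, and 5.74 and 3.64 CPM in wt libraries. It was lower in KO than in wt, with -1.47 ± 0.25 against wt (adjusted p = 0.00222), and E518K was above KO by 1.28 ± 0.25 (adjusted p = 0.00593; 0.0523 at the highest of the alternatives). Eya3, a widely expressed relative of Eya1, had 118 and 115 CPM in E518K libraries, 160.3 and 163 CPM in KO libraries, and 82.8 and 109 CPM in wt libraries. Its KO libraries were the highest, with 0.75 ± 0.12 against wt (adjusted p = 0.00175), and E518K against wt was 0.28 ± 0.12 (adjusted p = 0.134). Eya2 did not pass in any comparison.

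The relatives of Sall1 did not move one way. Sall3 had 77.2 and 77.9 CPM in E518K libraries, 64.5 and 63.8 CPM in KO libraries, and 54.7 and 54.5 CPM in wt libraries. Like Sall1 it was above wt in E518K (0.51 ± 0.06, adjusted p = 0.00316) and in KO (0.23 ± 0.06, adjusted p = 0.0149; up to 0.14 in the alternatives), and it was also higher in E518K than in KO (0.27 ± 0.06, adjusted p = 0.0108; up to 0.124). Sall4, a core factor of embryonic stem cells, had 251 and 242 CPM in E518K libraries, 202 and 207 CPM in KO libraries, and 301.7 and 253 CPM in wt libraries. It was lower in KO than in wt (-0.44 ± 0.09, adjusted p = 0.00446) and did not pass in E518K against wt (-0.17 ± 0.09, adjusted p = 0.197). Sall2 had 6.09 and 5.34 CPM in E518K libraries, 6.97 and 6.78 CPM in KO libraries, and 11.2 and 13.2 CPM in wt libraries. It was below wt in both, by a log2 fold change of -1.09 ± 0.15 in E518K (adjusted p = 0.00387; 0.053 without E518K clone 15) and -0.83 ± 0.14 in KO (adjusted p = 0.00245).

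Cited2, a relative of Cited1 that all these cells express well, had 57.0 and 57.0 CPM in E518K libraries, 67.5 and 60.5 CPM in KO libraries, and 94.8 and 87.9 CPM in wt libraries. Both groups lay below wt, by -0.68 ± 0.08 in E518K (adjusted p = 0.00281) and -0.51 ± 0.08 in KO (adjusted p = 0.00142). Osr2 had 80 and 58 counts in E518K libraries, 68 and 70 counts in KO libraries, and 148 and 138 counts in wt libraries, and was below wt in E518K (-1.03 ± 0.27, adjusted p = 0.033; up to 0.197 in the alternatives) and in KO (-1.13 ± 0.27, adjusted p = 0.00987; up to 0.0797). Cited4 had 3.15 and 5.45 CPM in E518K libraries, 4.45 and 4.28 CPM in KO libraries, and 2.65 and 1.5 CPM in wt libraries, and was higher in KO than in wt (1.07 ± 0.34, adjusted p = 0.031; up to 0.108 in the alternatives). Pax5 did not pass in any comparison.

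**Figure D3:**
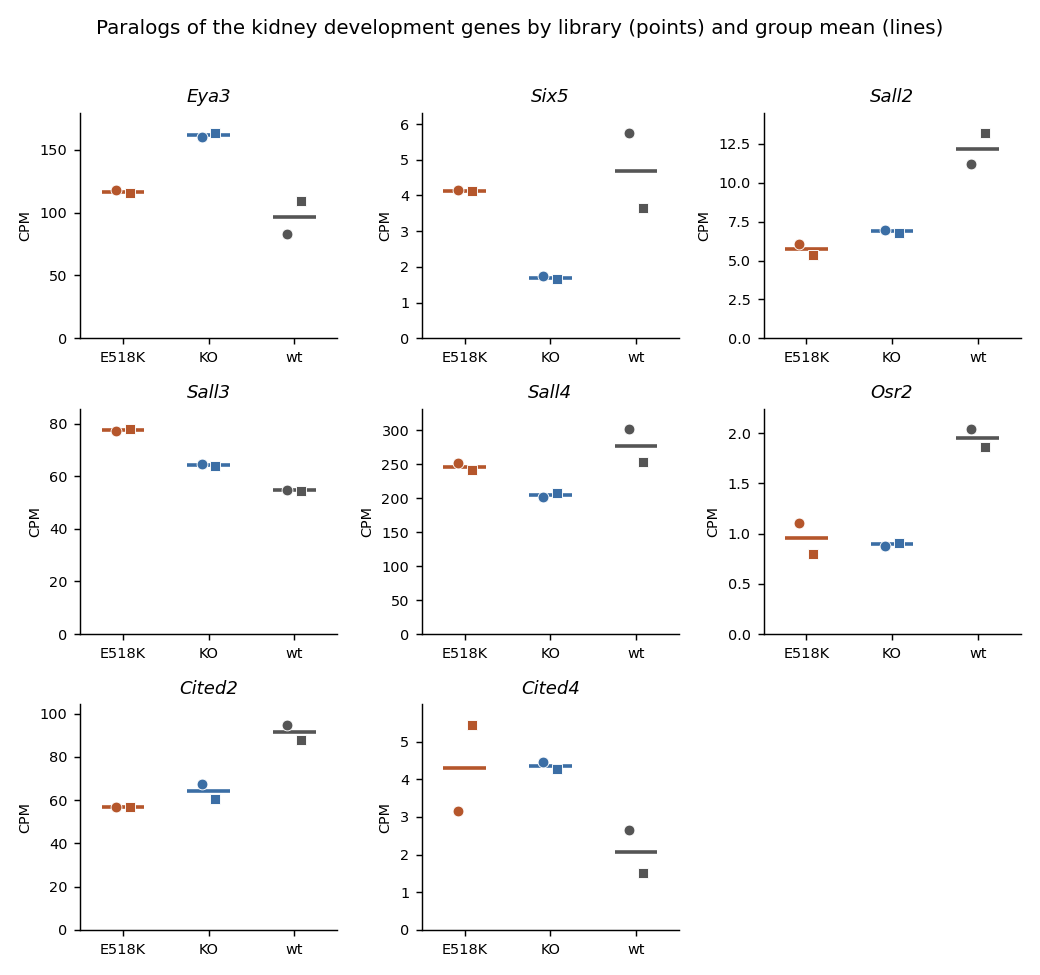
CPM (linear axes from 0) of 8 paralogs that passed the filter with a mean of at least 1 CPM, by group, with points for E518K, KO and wt libraries as in the plot of the 9 genes and lines at group means. Eya3 has KO highest, Six5 has KO lowest, and Sall2, Cited2 and Osr2 have wt highest.

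The wider kidney program did not move one way. Of 103 other genes in 5 lists drawn up from textbook roles (other nephron progenitor regulators, nephron differentiation, ureteric bud and collecting duct, stroma, and paralogs), 80 passed the filter. In E518K against wt 7 of the 80 passed as higher and 13 as lower, beside 11.3% and 12.5% of all tested genes. In E518K against KO 14 passed as higher and 17 as lower, beside 22% and 19.8%. In KO against wt 26 passed as higher and 22 as lower, beside 27.4% and 29.7%. The 26 include Six3, which passed the filter only through its KO counts. The 7 and the 14 include Fgfr2, whose annotated span overlaps many other genes of the table. The median log2 fold changes were 0.01, -0.17 and -0.14, against -0.02 for all genes in each. These counts are close to the background in each comparison.

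Among 22 tested regulators of nephron progenitors outside the 9, 3 passed as higher and 4 as lower in E518K against wt, 4 and 7 in E518K against KO, and 7 and 5 in KO against wt, beside the same all-gene shares, with medians of 0.05, -0.52 and -0.12. Fgfr2 is counted among the 3 and the 4 that passed as higher in E518K. Its annotated span overlaps many other genes of the table, so its counts can include theirs. Mycn, a growth-driving factor that is mutated or gained in some human Wilms tumours, had 165 and 153 CPM in E518K libraries, 193 and 185 CPM in KO libraries, and 84.2 and 86.7 CPM in wt libraries. It was above wt by 0.89 ± 0.07 in E518K (1.86-fold, adjusted p = 0.00078) and by 1.15 ± 0.07 in KO (2.21-fold, adjusted p = 3.62e-05), and both calls held in all 15 alternatives. Bmp7, a ligand that keeps nephron progenitors alive and dividing, had 3.53 and 2.87 CPM in E518K libraries, 14.6 and 13.1 CPM in KO libraries, and 24.9 and 14.9 CPM in wt libraries. E518K lay far below both, by -2.64 ± 0.26 against wt (adjusted p = 0.00163) and -2.12 ± 0.26 against KO (adjusted p = 0.000923), while KO against wt did not pass (-0.52 ± 0.24, adjusted p = 0.0961). Bmp7 shares with Eya1 the place of E518K below both other groups.

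Hmga2, a chromatin protein of growing embryonic cells, had 16.8 and 18.3 CPM in E518K libraries, 28.4 and 28.9 CPM in KO libraries, and 49.0 and 35.5 CPM in wt libraries. It was below wt in E518K (-1.26 ± 0.15, adjusted p = 0.00299) and in KO (-0.56 ± 0.15, adjusted p = 0.0146; up to 0.0757 in the alternatives), and E518K was below KO (-0.71 ± 0.15, adjusted p = 0.00846; up to 0.0797). Lin28b, the RNA-binding repressor of let-7 that has been linked to Wilms tumours in mice, had 16.5 and 15.6 CPM in E518K libraries, 30.4 and 32.4 CPM in KO libraries, and 4.94 and 11.6 CPM in wt libraries. KO was above wt by 1.93 ± 0.33 (adjusted p = 0.00235), and E518K against wt did not pass (0.96 ± 0.33, adjusted p = 0.0745).

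Of 21 tested nephron differentiation genes, 1 passed as higher and 2 as lower in E518K against wt, 3 and 2 in E518K against KO, and 5 and 5 in KO against wt, again beside these shares, with medians of 0.00, -0.22 and -0.01. The Notch receptors pattern the early nephron, and Notch1 and Notch2 were higher in KO than in either other group. Notch1 had 41.4 and 42.0 CPM in E518K libraries, 88.7 and 86.3 CPM in KO libraries, and 42.6 and 43.1 CPM in wt libraries. E518K was below KO by -1.07 ± 0.06 (adjusted p = 0.000111), KO was above wt by 1.03 ± 0.06 (adjusted p = 4.84e-05), and E518K against wt did not pass (-0.04 ± 0.06, adjusted p = 0.69). Notch2 had 31.5 and 34.0 CPM in E518K libraries, 83.5 and 84.3 CPM in KO libraries, and 26.7 and 35.1 CPM in wt libraries, with KO above wt by 1.44 ± 0.13 (adjusted p = 0.000148) and E518K below KO by -1.36 ± 0.13 (adjusted p = 0.000415). Their ligand Jag1 had 36.5 and 32.4 CPM in E518K libraries, 39.9 and 40.5 CPM in KO libraries, and 19.9 and 22.2 CPM in wt libraries. It was above wt in E518K (0.71 ± 0.10, adjusted p = 0.0042) and in KO (0.93 ± 0.10, adjusted p = 0.000277).

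In the ureteric bud list, 16 genes were tested, and 0 passed as higher and 2 as lower in E518K against wt, 4 and 3 in E518K against KO, and 5 and 5 in KO against wt, beside 11.3% and 12.5%, 22% and 19.8%, and 27.4% and 29.7% of all tested genes, with medians of 0.30, 0.38 and -0.09. In E518K against wt 3 of them (Etv4, Wnt7b and Krt8) were higher at an unadjusted p under 0.05 in edgeR, and DESeq2 and limma called 0. Wnt11, a ligand of the bud tips, had 2.89 and 2.39 CPM in E518K libraries, 9.05 and 8.66 CPM in KO libraries, and 3.31 and 2.16 CPM in wt libraries, and was above wt in KO (1.69 ± 0.23, adjusted p = 0.000893). Spry1, which restrains RET signalling in the bud, had 11.1 and 12.4 CPM in E518K libraries, 7.11 and 7.0 CPM in KO libraries, and 15.5 and 16.8 CPM in wt libraries, and was below wt in E518K (-0.46 ± 0.12, adjusted p = 0.0316; up to 0.145 in the alternatives) and further below in KO (-1.19 ± 0.12, adjusted p = 0.000239).

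Of 11 tested stroma genes, 2 passed as higher and 3 as lower in E518K against wt, 0 and 4 in E518K against KO, and 5 and 3 in KO against wt, beside 11.3% and 12.5%, 22% and 19.8%, and 27.4% and 29.7% of all tested genes, with medians of -0.19, -0.18 and -0.23. None was higher in E518K than in KO at an unadjusted p under 0.05 in edgeR, and DESeq2 and limma called 0. Foxd1, the defining factor of the kidney stroma, had 3.78 and 3.74 CPM in E518K libraries, 10.9 and 10.6 CPM in KO libraries, and 1.16 and 2.03 CPM in wt libraries. Each group stood clear of the others, with KO highest and E518K between: 1.24 ± 0.25 in E518K against wt (adjusted p = 0.0157; up to 0.102 in the alternatives), -1.51 ± 0.24 in E518K against KO (adjusted p = 0.0027) and 2.75 ± 0.26 in KO against wt (adjusted p = 0.000186).

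Of 34 tested genes mutated or altered in human Wilms tumours outside the 9, 7 passed as higher and 3 as lower in E518K against wt, 9 and 5 in E518K against KO, and 8 and 14 in KO against wt, beside 11.3% and 12.5%, 22% and 19.8%, and 27.4% and 29.7% of all tested genes, with medians of 0.05, 0.02 and -0.07. Dgcr8 is itself on this list and is counted among the 9 higher in E518K against KO and the 14 lower in KO against wt. The groups were made to differ in DGCR8, so its calls are no support. Gpc3, a surface proteoglycan, had 89.0 and 86.5 CPM in E518K libraries, 109.9 and 108 CPM in KO libraries, and 61.7 and 65.8 CPM in wt libraries. It was above wt by 0.46 ± 0.06 in E518K (adjusted p = 0.00475; up to 0.0785 in the alternatives) and 0.78 ± 0.06 in KO (adjusted p = 0.000124). Cdkn1c had 2.58 and 1.44 CPM in E518K libraries, 0.983 and 0.985 CPM in KO libraries, and 2.68 and 3.81 CPM in wt libraries. KO was below wt (-1.72 ± 0.34, adjusted p = 0.00418), and E518K against wt did not pass (adjusted p = 0.162). Bcorl1 and Map3k4 were below wt in E518K (-0.38 ± 0.10, adjusted p = 0.031, and -0.29 ± 0.07, adjusted p = 0.0216). Each of these calls in E518K was lost in 7 of the 15 alternatives.

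Around Amer1, 19 genes of the β-catenin destruction complex and Wnt targets were tested, and 3 passed as higher and 0 as lower in E518K against wt, 4 and 4 in E518K against KO, and 5 and 6 in KO against wt, beside 11.3% and 12.5%, 22% and 19.8%, and 27.4% and 29.7% of all tested genes, with medians of -0.04, 0.02 and -0.09. In E518K against wt 4 were lower at an unadjusted p under 0.05 in edgeR (Fbxw11, Gsk3b, Csnk1a1 and Ctnnb1), DESeq2 called Ctnnb1 as lower and limma called Ctnnb1 and Gsk3a. Sp5, a direct Wnt target, had 55.3 and 42.7 CPM in E518K libraries, 95.3 and 93.4 CPM in KO libraries, and 18.3 and 17.2 CPM in wt libraries. It was above wt by 1.47 ± 0.12 in E518K (2.77-fold, adjusted p = 0.0012) and 2.41 ± 0.13 in KO (5.33-fold, adjusted p = 2.73e-05). Axin2, another direct target, had 81.8 and 68.2 CPM in E518K libraries, 62.7 and 59.5 CPM in KO libraries, and 68.7 and 64.6 CPM in wt libraries, and neither group passed against wt (adjusted p = 0.236 for E518K and 0.304 for KO). CHIR99021 was present in all groups, so these are levels under forced β-catenin signalling.

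**Figure D4:**
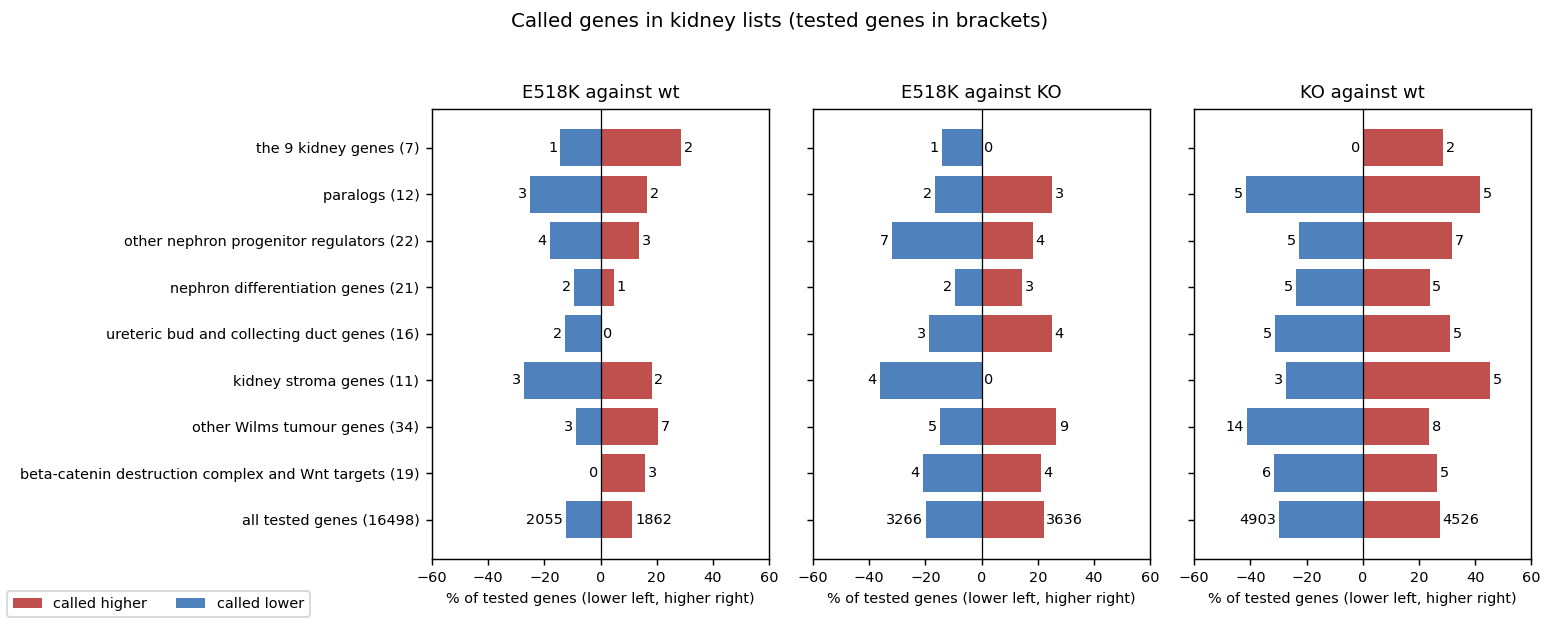
Percent of the tested genes in each list that passed the test as higher (right of 0) and as lower (left of 0) in E518K against wt, E518K against KO and KO against wt, with the number of genes at each bar and all tested genes in the bottom row. The all-gene shares as higher and lower are 11.3% and 12.5%, 22% and 19.8%, and 27.4% and 29.7%.

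For the 3 members that passed any test, genes of like profile were sought by the root mean square distance of centred log2 CPM over the 6 libraries. Nearest to Eya1 were Epb41l1 (distance 0.044), Cpt1a (0.055) and Slc12a7 (0.063), and 15 of 12063 genes lay within 0.1. Nearest to Sall1 were Ebp (0.049), Fam98a (0.062) and Psmb10 (0.074), with 30 of 12063 within 0.1. Nearest to Wt1 were Rsph4a (0.393), Tmsb4x (0.429) and Apol6 (0.486), and none of 12064 lay within 0.1. Wt1 had 6 to 74 counts per library, where counting error alone can exceed 0.1. The lack of a gene within 0.1 therefore does not show that its profile is unusual. Cpt1a, the carnitine palmitoyltransferase of fatty acid oxidation, had 115 and 108 CPM in E518K libraries, 214 and 211 CPM in KO libraries, and 176 and 169.8 CPM in wt libraries, the same order as Eya1. These distances describe 6 libraries and were not tested.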

How the data were processed

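Per the labels, RNA of mouse embryonic stem cells was sequenced on a BGISEQ-500. The authors deposited raw counts per gene symbol and a TPM table of the same genes. Per the submitters' processing notes, STAR, bedtools and GRCm38.p6 were used, with no role or version stated. The deposited counts follow the genomic span of a gene: the length implied by count and TPM was within 5% of the GENCODE M21 span for 98.18% of 19093 genes, introns included, and strand cannot be told. Of 19794 matched genes, 3539 overlap another gene of the table, and no member does. Of the genes named from the lists, Dgcr8 overlaps Trmt2a, Ctnnb1 overlaps Ulk4 and Apol6 overlaps Mb. Fgfr2 overlaps many genes, Bub3, Oat and Ctbp2 among them.

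Counts were tested with edgeR 4.0.16 in R 4.3.3: TMM factors, a minimum count of 10, 1 robust quasi-likelihood fit over all 6 libraries with group as the only term, and 3 residual degrees of freedom. The common biological coefficient of variation was 11.9%. Because the spread is pooled, each comparison draws on the third group as well. The standard error is the log2 fold change over the root of the F statistic. The procedure was run on simulated counts with the same spread in every group. That run does not show how the test behaves with the unequal spreads of these groups. Alternatives were RLE and upper-quartile factors, DESeq2 1.42.0, no filter, a minimum count of 50, limma 3.58.1 on log2(TPM + 1), only the 4 libraries compared, KO summed, no overlapping genes, and each library left out.

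The members and lists were chosen with earlier results of these data known, so lists are described by counts. Named genes are the members, the paralogs that passed the filter, up to 3 called genes of the largest increase and of the largest decrease per list and comparison with a mean log2 CPM of at least 1 (a subset is given), the leading markers, and the 3 nearest profiles of each called member. Lhx1, Hoxb7, Tcf21, Nr5a1, Upk3b, Pax7, Myf5, Myf6, Wnt7b, Fbxw11, Gsk3b, Csnk1a1 and Ctnnb1 were named after their values were seen, as were the paralogs too low to compare. The values of 1 paralog are not reported here. UTRs came from the transcript with the best APPRIS rank, then the longest UTR.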

Additional observations from a re-analysis of the deposited data

How the results depend on the processing

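Of the 7 members' log2 fold changes under the alternatives, 262 kept direction and side of the threshold. With the direction kept, 13 lost a call and 23 gained one. Another 13 reversed, counted whatever their side of the threshold. Sall1 kept its result in all 15 alternatives of each comparison. No paired analysis was possible because the groups share no replicate numbers. Members called as higher in KO against wt fell to 1 (Sall1) with upper-quartile factors, without a filter, with KO summed and without overlapping genes. In E518K against KO, 1 member (Wt1) was called as higher without a filter, at a minimum count of 50, with limma and with only the 4 libraries compared, and 4 were called as lower in the last, among them Six2, which passed the filter only through KO. Genes called fell to 6163, 1909 and 3267 with KO summed (KO against wt, E518K against wt and E518K against KO) and to 1999 in E518K against wt with only its 4 libraries. Leaving out 1 library at a time gave 644 to 6987 genes called in E518K against wt, 3285 to 9482 in E518K against KO and 6084 to 10958 in KO against wt. Members called as higher and as lower then ranged from 1 to 3 and 0 to 2 in E518K against wt, from 0 to 1 and 1 to 4 in E518K against KO, and from 1 to 4 and 0 to 1 in KO against wt.

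The cause of the reversed values was not tested. Amer1 in KO against wt was -0.04 with upper-quartile factors, -0.00099 without overlapping genes, -0.00066 without KO library 1 and, leaving out 1 library, ran from -0.21 without wt clone 12 to 0.29 without wt clone 16. Cited1 ran from -0.84 without wt clone 16 to 0.59 without wt clone 12 in E518K against wt, and from -0.87 to 0.56 in KO against wt. In E518K against KO it was -0.07 with limma and ran from -0.05 without E518K clone 8 to 0.12 without E518K clone 15, with -0.02 without KO library 3. Six2 in E518K against wt was -0.03 with upper-quartile factors, -0.0039 with limma, -0.94 without E518K clone 8 and, leaving out 1 library, from -0.95 without wt clone 12 to 5.08 without wt clone 16, where the wt library left had 0 counts and the value is no bound. Six2 gave no value at a minimum count of 50, nor in E518K against wt with only its 4 libraries. Upper-quartile factors moved the share of higher calls in E518K against wt to 37.5%, limma to 27.8%, and leaving out E518K clone 8 or clone 15 to 60.1% and 60.2%, against 47.5%. In E518K against KO limma moved it to 41%, against 52.7%. The common coefficient of variation within a group was 9.19% in E518K, 2.6% in KO and 20.6% in wt, so the pooled spread is narrower than that of wt alone.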
